A study of Mus musculus with 48 samples.

Results

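Variable m6A regions of coding sequence (CDS) are stretches of mRNA that were called as m6A peaks in some hippocampi of the study and not in others. They were found by joining the peaks of 24 m6A-IP peak lists, 1 per animal, into common regions wherever peaks overlapped by at least 1 bp, and by keeping regions that were called in 3 to 23 animals and whose midpoint lay in the CDS of a protein-coding gene of the mouse genome mm9 (NCBIM37). This gave 8787 regions of 81807 common regions in all, and of 21553 common regions in CDS. The other CDS regions were 4969 constitutive regions, called in all 24 animals, and 7797 regions called in 1 or 2 animals. The number of calling animals chose the regions and is given only as a description.

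The study compared hippocampi of male Hdh+/Q111 knock-in (KI) mice, a Huntington's disease model on a C57BL/6 background in which 1 Htt allele carries an expanded CAG repeat, with those of WT littermates. Mice were 8 or 5 months of age and were either killed 30 min after they had been trained in a spatial memory test, the object location task, or left naive, with 3 animals per condition and 8 conditions. RNA was fragmented, fragments with m6A were pulled down with an antibody, and peaks were called per animal against that animal's own input library. Each animal belonged to 1 condition and p-values measure the spread between these animals.

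m6A is a methyl group on internal adenosines of mRNA. A nuclear complex built around Mettl3 and Mettl14 writes it, Fto and Alkbh5 can remove it, and YTH proteins bind it and affect splicing, export, translation and decay of the mRNA. It is known to lie mostly in a GGAC-like context, in long internal exons and around stop codons, while exon junction complexes keep the machinery away from splice sites, so that short coding exons carry little of it. In neurons, m6A has been linked to local translation and to memory.

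The animals differed in the number and length of their peaks. The lists held 22601 to 57293 peaks per animal, with a median peak length of 172 to 485 bp. The 5 animals with the shortest peaks were all 8 months old: naive KI animals 1 and 3 with medians of 172 and 197 bp, trained KI animal 2 with 202 bp, naive WT animal 2 with 213 bp and trained WT animal 3 with 233 bp. No 5-month animal was below 262 bp. Of 10 marker genes of pyramidal neurons, 8 to 10 had an exonic peak in every animal, and of 9 markers of dentate granule cells 4 to 7. Of 10 choroid plexus markers, 2 to 7 had a peak. Kl and Prlr had one in all animals, and Ttr, Folr1 and Aqp1 in none. The ranges of dentate and choroid plexus markers thus overlapped. Of 10 striatal markers, 8 or 9 had a peak, among them Drd1a, Drd2 and Adora2a in all animals, so that peaks did not separate hippocampus from striatum.

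The sequences below stand at the strongest summit of the variable region that each name marks, trimmed to the coding exon, 5′ to 3′ on the mRNA strand of mm9, and show what the calls compared later rest on. Capitals mark GGAC, the core of the m6A consensus. For Pik3c2b and Crocc the strongest summit lay outside coding sequence, and the window is centred on the region's midpoint.

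Magi1, chr6:93647380-93647480 (- strand), the lowest p for age: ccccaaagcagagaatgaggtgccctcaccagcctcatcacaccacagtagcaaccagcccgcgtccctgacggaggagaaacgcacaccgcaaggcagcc

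Gpcpd1, chr2:132356299-132356399 (- strand), called only at 5 months: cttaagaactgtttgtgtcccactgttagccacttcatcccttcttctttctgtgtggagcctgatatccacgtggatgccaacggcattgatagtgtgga

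Slc16a11, chr11:70028145-70028214 (+ strand), called only in KI mice: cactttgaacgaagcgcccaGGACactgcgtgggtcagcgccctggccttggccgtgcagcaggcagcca

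1700001L19Rik, chr13:68751707-68751779 (+ strand), called more often in WT mice: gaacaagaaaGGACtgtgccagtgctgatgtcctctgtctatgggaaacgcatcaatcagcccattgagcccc

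Ppara, chr15:85628581-85628681 (+ strand), called more often in trained mice: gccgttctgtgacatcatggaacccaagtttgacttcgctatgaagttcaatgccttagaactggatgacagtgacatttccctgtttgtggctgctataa

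Pik3c2b, chr1:135002649-135002732 (+ strand), called more often in naive mice: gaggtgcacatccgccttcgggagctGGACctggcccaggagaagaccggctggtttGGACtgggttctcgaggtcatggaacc

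Tnxb, chr17:34809512-34809612 (+ strand), gene with most variable regions: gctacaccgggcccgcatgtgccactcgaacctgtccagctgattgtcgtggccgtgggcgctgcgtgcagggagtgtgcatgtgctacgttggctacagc

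Crocc, chr4:140606992-140607092 (- strand), gene with the next most: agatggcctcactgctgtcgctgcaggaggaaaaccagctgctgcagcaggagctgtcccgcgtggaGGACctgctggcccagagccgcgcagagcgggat

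These 8 windows differed in the motif. The Slc16a11 and 1700001L19Rik windows held 1 GGAC each, its A 28 and 10 bases from the summit. At the midpoint, the Crocc window held 1 and the Pik3c2b window 2. The Pik3c2b region had no GGAC within 50 bases of its strongest summit and counts as without it in the share below. No GGAC lay in the windows of Magi1, Gpcpd1, Ppara and Tnxb, although their regions had median fold enrichments (IP over input at the summit) of 3.23, 2.39, 8.64 and 10.1. Of all 8787 variable regions, 40.7% had a GGAC within 50 bases of the strongest summit and 12.7% a GGACT, which contains GGAC. On the opposite strand of the same windows the share with GGAC was 32.7%, and 39.6% of all windows of that length in the CDS of genes with a variable region held GGAC, and 10.9% GGACT. The windows at the summits were not trimmed to the coding exon for these shares, whereas the windows of all CDS were wholly coding.

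Most variable regions were called in few animals. The median was 8 animals, with 3840 regions called in 3 to 6 animals, 1818 in 7 to 12, 1271 in 13 to 18 and 1858 in 19 to 23. At the edges of the rule, the 1508 regions called in 3 animals had a median exon length of 174.5 nt and 12.6% lay in exons of 400 nt or more, close to the 169 nt and 10.8% of the 2513 regions called in 2 animals. The 821 regions called in 23 animals had a median exon length of 778 nt and 82.0% in long exons, against 1334 nt and 94.5% for the constitutive regions. Variable regions were narrower and weaker than constitutive ones, with an interquartile range of widths of 242 to 549 bp against 743 to 1788 bp, and a median fold enrichment of 3.47 (2.62 to 4.72) against 5.39 (3.93 to 7.28). A region joins the peaks of all its calling animals, which can only widen it, and the number of these animals chose the sets. Both contrasts are therefore only a description. Median widths had the same order in 3′UTRs (487 against 1080 bp) and in introns (373 against 836 bp). The strongest summit lay in CDS in 83.4% of the variable regions.

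Variable regions lay in shorter exons than constitutive regions. In exons under 200 nt were 32.8% of the variable regions, 1.29% of the constitutive regions and 45.7% of the CDS bases of the same genes. Exons of 200 to under 400 nt held 30.5% of the variable regions, 4.17% of the constitutive ones and 17.6% of the bases, which made this class the densest in variable regions, at 1.73 times its share of bases. Exons of 1000 nt or more held 16.2% of the variable regions, 61.4% of the constitutive regions and 23.1% of the bases. Regions were placed by their midpoint, and constitutive regions were wider, with an interquartile range of 743 to 1788 bp against 242 to 549 bp. The midpoint of a region wider than its exon can fall in an intron, which leaves the region out of both CDS sets. The part of width in these shares was not tested, so the contrast is only a description. The same limit holds for the other exon-length contrasts with constitutive regions.

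**Figure D1:**
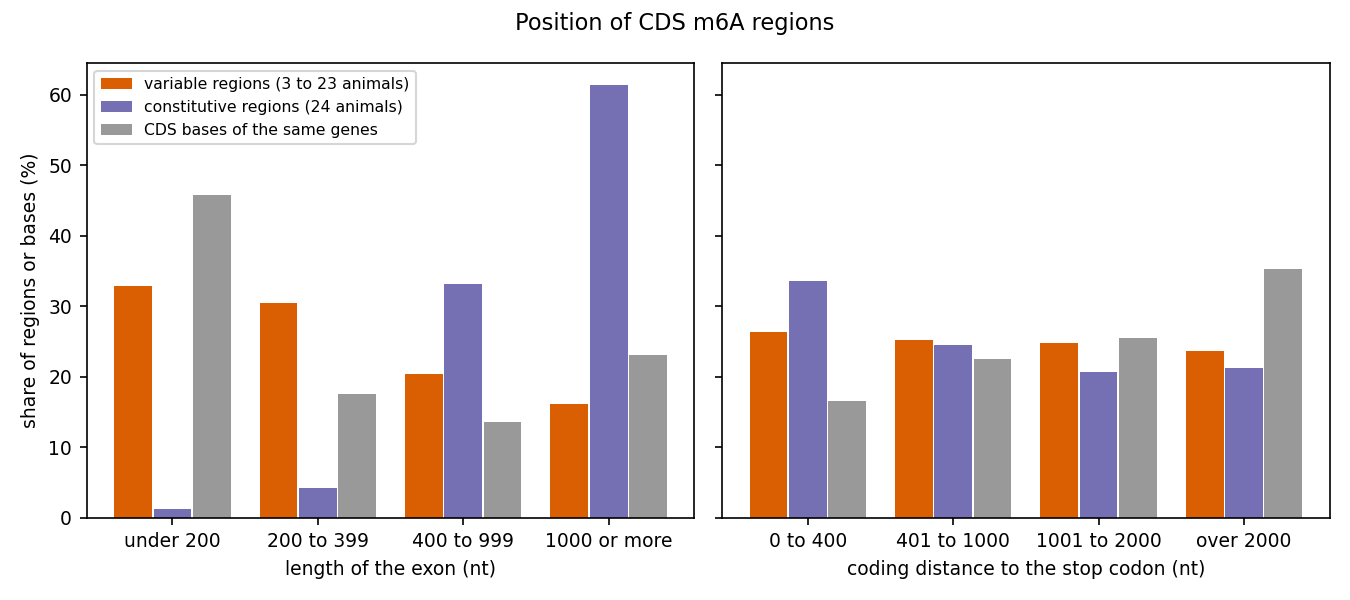
Shares, in percent, of variable CDS m6A regions (orange), constitutive CDS m6A regions (purple) and CDS bases of the genes with a variable region (grey), by length of the exon in nt (left) and by coding distance to the stop codon in nt (right). Variable regions are spread over exons of all lengths, with 32.8% in exons under 200 nt against 1.29% of the constitutive regions. Constitutive regions are wider, and the part of width in these shares was not tested.

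The position of the exon followed the number of calling animals. The median exon length was 190 nt for regions called in 3 to 6 animals, 284 nt for 7 to 12, 402 nt for 13 to 18 and 629 nt for 19 to 23. Internal coding exons held 80.5%, 66.1%, 57.4% and 43.5% of these 4 groups, and last coding exons held 9.01%, 19.5%, 24.5% and 31.5%. The median width of the regions rose along the same groups, at 226, 406, 492 and 634 bp, and its part in the exon lengths was not tested. Seen by exon class, regions in exons under 200 nt were called in a median of 4 animals, those in exons of 200 to under 400 nt in 8, and those in longer exons in 16.

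Distance to the stop codon separated the regions less than exon length did. Within 400 coding nt of the stop codon lay 26.3% of the variable regions, 33.6% of the constitutive regions and 16.6% of the CDS bases. Beyond 2000 nt lay 23.7% of the variable regions, 21.2% of the constitutive regions and 35.3% of the bases. Both rules together placed variable regions most densely, at 2.37 times their share of bases, in exons of 400 to under 1000 nt within 400 nt of the stop codon, and least densely, at 0.285 times, in exons of 1000 nt or more beyond 2000 nt. Constitutive regions stood at 3.92 times their share of bases in exons of 1000 nt or more within 400 nt of the stop codon.

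The same shares were taken per animal, over the variable regions each animal called. The number of calling animals separates variable from constitutive regions, and all animals draw on the same regions, so the values are a description with no test. On average 55.8 ± 12.0% (SD, n = 24) of an animal's called variable regions lay in exons of 400 nt or more, with a range of 35.0 to 74.3%, against 94.5% of the constitutive regions. The share with GGAC was 42.6 ± 1.47%, against 51.9%. The constitutive value is the same in every animal, since all animals call these regions. The share within 400 nt of the stop codon was 30.6 ± 3.65% against 33.6%, higher than the constitutive share in 5 animals, and this order depended on the processing. Entering each animal with an equal number of its best peaks put the variable regions 0.91 percentage points above the constitutive ones, limiting the peaks to a -log10 q from 5 upwards put them 0.21 points above, and counting within 200 nt of the stop codon put them 1.01 points above.

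The GGAC share also differed within exon classes. In exons of 1000 nt or more, 43.7% of the variable and 51.1% of the constitutive regions held GGAC at the summit, in exons of 400 to under 1000 nt 45.0% and 53.7%, and in exons of 200 to under 400 nt 39.6% and 50.2%. In exons under 200 nt, 37.7% of the variable regions held it, against 46.9% of 64 constitutive regions. All windows of CDS in these exon classes, from the longest to the shortest exons, held it in 37.9%, 41.3%, 40.8% and 39.5%. The shares of variable regions stood above this level only in exons of 400 nt or more. The windows at the summits were not trimmed to the exon and can run past a short one, whereas the windows of all CDS were wholly coding.

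Variable regions were scattered over 5382 protein-coding genes, 3550 of which held exactly 1 region and 191 of which held 5 or more. Of the regions, 38.6% lay in a gene that also held a constitutive CDS region. Genes with a variable region had a median CDS length of 1794 nt, against 1131 nt over all 22372 protein-coding genes.

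The genes with most variable regions included genes of large structural and membrane proteins. Tnxb, a tenascin of the extracellular matrix, held 17 regions called in 4 to 23 animals, in exons of 288 to 1833 nt, and no constitutive region. Crocc, which codes for rootletin of the ciliary rootlet, held 15 regions, of which 9 lay in exons under 200 nt and 7 had a GGAC. Prrc2b held 14 regions, 11 of them in exons under 200 nt, and none was called in more than 11 animals.

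Cytoskeletal genes were among them. The beta spectrin genes Spnb3 and Spnb4, which line the axonal and synaptic membrane, held 14 and 12 regions called in a median of 7.5 and 16.5 animals. Myh14, a nonmuscle myosin heavy chain, held 13 and Dst, a linker of cytoskeletal filaments, 11 beside 6 constitutive regions. Atp2b2, a calcium pump of the plasma membrane, held 12 regions, with 3.22 per kb of CDS the highest density of the genes named here. Summed over its regions and over the 3 animals of a condition, Atp2b2 had 11, 10, 24 and 11 calls in trained KI, trained WT, naive KI and naive WT mice of 8 months, against 4, 0, 2 and 1 calls at 5 months.

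Ttn, which codes for titin of the muscle sarcomere, held 14 regions in exons of 1694 to 17106 nt, of which 9 had a GGAC, and had, unlike Atp2b2, fewer calls at 8 months, with 16, 9, 19 and 19 calls at 8 months in trained KI, trained WT, naive KI and naive WT mice, against 28, 12, 25 and 20 calls at 5 months. Its density was 0.133 per kb of a CDS of 105639 nt. In the exon of 17106 nt, the longest that held a variable region, the region at chr2:76575553-76575910 was called in 5 animals with fold enrichments of 3.76 to 6.14. The next longest exons were the last exons of Eif2c3, an Argonaute gene, of 12851 nt with a region called in 23 animals 44 nt before the stop codon, and of Homer2, a postsynaptic scaffold gene, of 9961 nt with a region called in 12 animals.

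Synaptic genes were counted by list, beside 5382 of all 22372 protein-coding genes that held a variable region. Gene length and mRNA level, which differ between lists and all genes, were not taken into account, and no list was tested. Among 30 postsynaptic scaffold and signalling genes, 24 held 73 regions, led by Ppp1r9b with 7, Sipa1l1 with 6 and Dlgap1 with 5. Ppp1r9b codes for spinophilin, which brings a phosphatase to dendritic spines. Among 30 presynaptic genes, 24 held 54 regions, led by the adhesion gene Nrxn2 with 6 and by Bsn, a scaffold of the active zone, with 5. Of 17 ionotropic glutamate receptor genes, 13 held 22 regions, with 6 in the NMDA receptor gene Grin2b and 2 each in Grid1 and Grik4. Of 7 metabotropic receptor genes, 5 held 10 regions, among them 3 in Grm7 and 2 in Grm8, and of 20 GABA synapse genes, 11 held 14 regions, among them 2 each in Gabbr1 and Gabra3.

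Regions of 1 gene differed widely in how many animals called them. In Grin2b, the region in an exon of 599 nt was called in 23 animals and that in an exon of 429 nt in 20, while the other 4 regions, in exons of 172 to 239 nt, were called in 3 or 4 animals, all of 8 months. In Nrxn2, regions in exons of 842 and 387 nt were called in 23 animals each and that in an exon of 182 nt in 5.

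Ion channel, nuclear and m6A genes were counted likewise. Of 30 voltage-gated channel genes, 18 held 54 regions, led by the calcium channel genes Cacna1h with 7 and Cacna1a with 5 and the sodium channel gene Scn2a1 with 5. Of 26 matched transcription and chromatin genes, 25 held 94 regions, among them the chromatin remodelling gene Arid1b with 8 and the Mediator gene Med13l with 5, and of 24 matched cytoskeletal genes, 20 held 96. Of 28 immediate-early genes, 11 held 17 regions, 4 in the clock gene Per1 and 2 each in Dusp1 and Nptx2. Of 24 matched m6A genes, 7 held 13 regions, 3 each in Zc3h13 and 1110037F02Rik, a later name of which is Virma and both of which code for writer complex subunits, and in the reader gene Ythdc1. Of 13 matched genes of huntingtin and its partners, 9 held 10 regions, 2 of them in Hap1, 1 in Dnm1 and 1 in F8a, and Htt held none.

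The number of variable regions called per animal ranged from 1862 to 7797. At 8 months, trained KI mice had 3287, 5553 and 3548 calls, trained WT mice 3064, 4555 and 5368, naive KI mice 6691, 4606 and 7797, and naive WT mice 2668, 6152 and 4456. At 5 months, trained KI mice had 3791, 2597 and 3745 calls, trained WT mice 1956, 2304 and 1862, naive KI mice 3620, 3957 and 2825, and naive WT mice 3406, 2256 and 2302. Naive KI mice of 8 months thus had the highest and trained WT mice of 5 months the lowest mean, and the conditions of 8 months overlapped each other. In bulk tissue, fewer cells of a type and less RNA per cell cannot be told apart, and the amount of each mRNA was not analysed here.

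**Figure D2:**
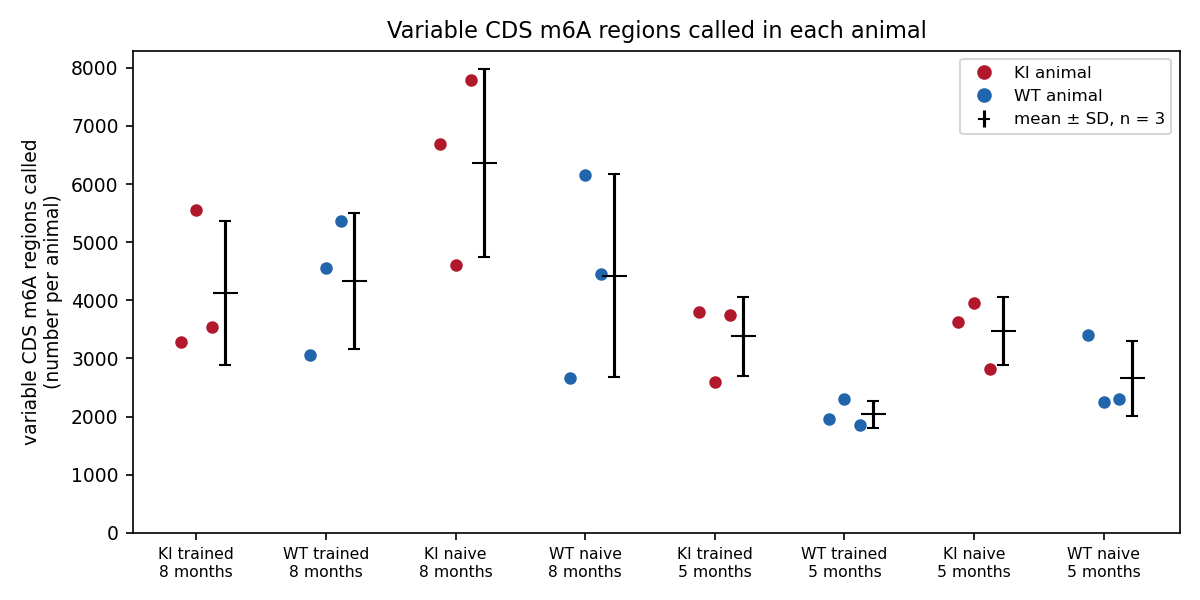
Number of variable CDS m6A regions called in each animal (points, KI red and WT blue) by condition, with the mean and SD of the 3 animals. Calls range from 1862 in a trained WT mouse of 5 months to 7797 in a naive KI mouse of 8 months.

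Calls of variable CDS regions were more frequent at 8 months. An animal called 4812 ± 1564 regions at 8 months and 2885 ± 774 at 5 months (SD, n = 12 each), a difference of 1927 that had the same direction in all 4 combinations of genotype and training (exact permutation test within these combinations, p = 0.000525, adjusted over 15 tests p = 0.00644). The lowest, median and highest counts were 2668, 4581 and 7797 at 8 months and 1862, 2711 and 3957 at 5 months, so the groups overlapped. These counts included 2398 regions that entered the rule through 8-month animals alone and 27 that entered through 5-month animals alone. The number of peaks moved with the count of called regions over the 24 animals (r = 0.908, rho = 0.9). For both, the permutation p was 1e-05, the smallest these permutations can give, with adjusted p = 3.33e-05 and 0.0001 over 10 relations. The r was 0.823 without the 2 farthest animals, 0.939 within 8 months and 0.838 within 5 months. Called regions are made from the same peaks, so a positive relation was built in and its p-value is only descriptive. With every animal cut to its 22601 best peaks, the difference was 275 regions (exact p = 0.118), and without the 5 animals with the shortest peaks it was 964 (exact p = 0.0143).

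The kind of variable region called also differed with age. CDS held 23.7 ± 3.96% of the variable regions called at 8 months and 18.3 ± 3.94% at 5 months (adjusted p = 0.018, exact permutation test, n = 12 each), which was not below 0.05 without the 5 animals with the shortest peaks (difference 3.02 points, exact p = 0.0853). Of the CDS regions called, 48.4 ± 11.4% lay in exons of 400 nt or more at 8 months and 63.2 ± 7.09% at 5 months (exact test, adjusted p = 0.00644). The share near the stop codon was 28.2 ± 2.8% at 8 months and 33.0 ± 2.78% at 5 months (exact test, adjusted p = 0.00644). The GGAC share was 41.7 ± 1.21% at 8 months and 43.4 ± 1.27% at 5 months (exact test, adjusted p = 0.018), and the difference of -1.63 points was -0.97 (exact p = 0.0918) without those 5 animals. All 4 differences had the same direction in each combination of genotype and training, and with 22601 best peaks per animal they were 2.49, -7.39, -2.50 and -1.56 points, each with an exact p below 0.05. The regions compared included 2398 called in no 5-month animal and 27 called in no 8-month animal, which entered the rule through a single age. The differences and their p-values rest in part on such regions, and no test was run without them.

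The ages overlapped in short and in long exons. Of the 2884 variable regions in exons under 200 nt, the 8-month animals called 9.15 to 90.8% each and the 5-month animals 4.61 to 23%. Of the 1423 regions in exons of 1000 nt or more, the 8-month animals called 55.1 to 83.1% and the 5-month animals 37.2 to 74.8%. The 5 highest values in short exons, 90.8, 76.7, 68.0, 61.1 and 50.5%, came from the 5 animals with the shortest peaks, and the highest among the other 8-month animals was 29.7%.

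**Figure D3:**
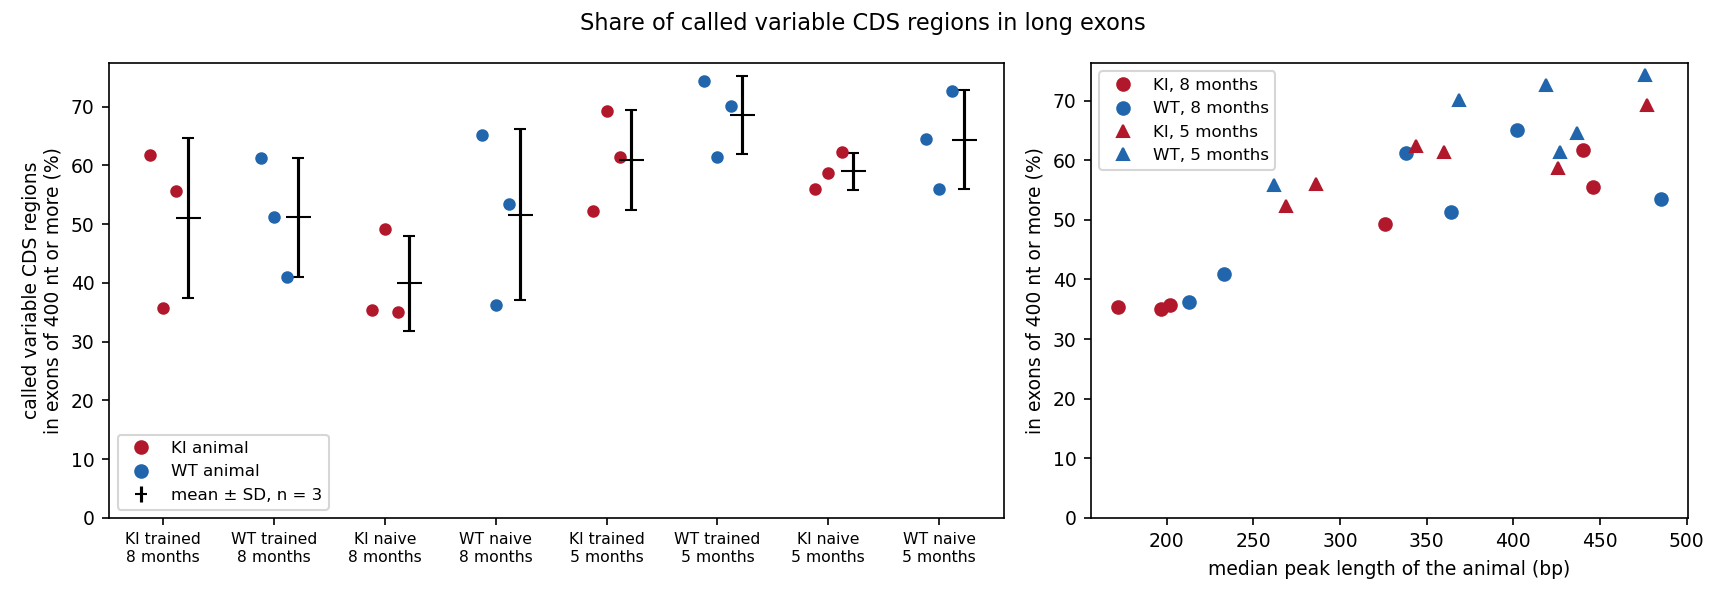
Left, share of an animal's called variable CDS regions in exons of 400 nt or more (percent, points) by condition, with mean and SD of 3 animals. Right, the same share against the animal's median peak length in bp, with circles for 8 months and triangles for 5 months. The 5 animals with medians of 172 to 233 bp, all of 8 months, have the lowest shares.

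The long-exon share moved with the median peak length over the 24 animals (r = 0.813, permutation p = 1e-05, the smallest these permutations can give, rho = 0.697, p = 0.0002, adjusted p = 3.33e-05 and 0.0005), with r = 0.745 without the 2 farthest animals, 0.868 within 8 months and 0.759 within 5 months. Without the 5 animals with the shortest peaks the age difference was -7.38 points in the long-exon share (exact p = 0.0308) and -3.26 points in the share near the stop codon (exact p = 0.0228). The long-exon share also moved with the number of peaks (r = -0.798, rho = -0.809). With peak length and number of peaks, the GGAC share had r = 0.754 and -0.694, and the share near the stop codon r = 0.443 and -0.546. Shares, lengths and numbers come from the same peaks, so the p-values of these relations are only descriptive. Peak length and age overlap in these animals, and the part of peak length in the age difference was not tested further.

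Most variable regions were called in more animals of 8 months than of 5 months. This held for 7517 regions (85.5%), while 714 were called in fewer and 556 in equal numbers. No 5-month animal called 2398 of them (27.3%), which entered the rule through 8-month animals alone, 1127 of them with exactly 3 calls. As a description of that choice, their median exon length was 171 nt, with 4.92% in exons of 400 nt or more and 17.0% near the stop codon. No 8-month animal called 27 of them, with a median exon length of 1066 nt, 85.2% in long exons and 44.4% near the stop codon. None of these counts was taken over all 39806 variable regions, so they are not shown to be particular to CDS.

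**Figure D4:**
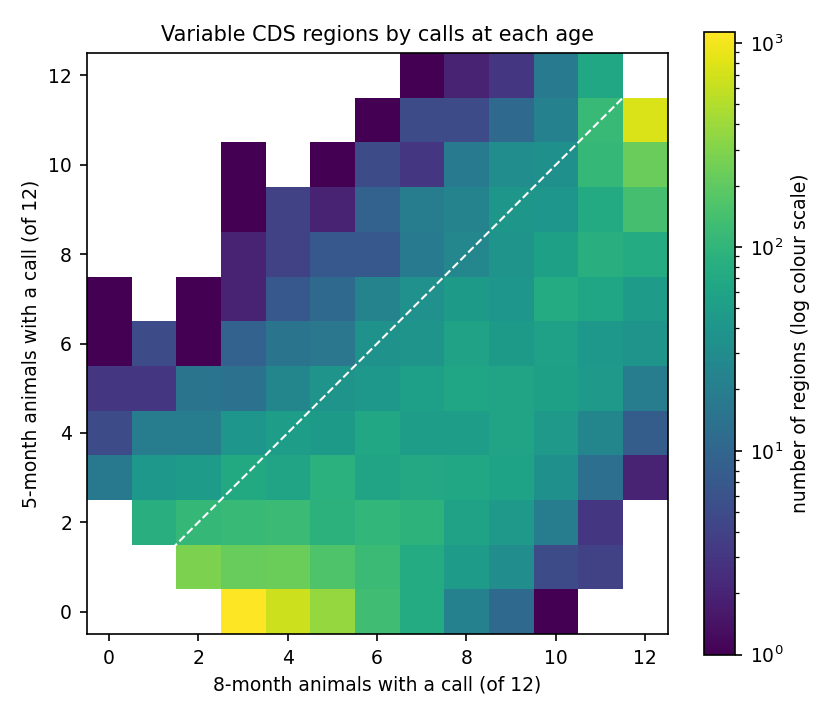
Number of variable CDS m6A regions (log colour scale) by the number of 8-month animals (horizontal axis) and of 5-month animals (vertical axis) that called them, of 12 each, with white cells empty. The dashed line marks equal numbers. Most regions, 85.5%, lie below it, and 2398 lie on the bottom row with no 5-month call. Variable regions outside CDS were not counted in this way.

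Each region called in 3 to 21 animals was tested on its own by Fisher's exact test, which took in 7606 variable CDS regions, with p-values adjusted over all 35110 common regions so tested. For age, 1229 CDS regions (16.2%) were called more often at 8 months with an unadjusted p under 0.05, against 8.86% of all regions tested, and 8 CDS regions (0.105%) more often at 5 months, against 0.937% of all. After adjustment 0 CDS regions passed, as in the 0% of all regions, and the lowest adjusted p was 0.188. The count of 1229 was 179 with 22601 best peaks per animal, 360 for a -log10 q from 5 upwards, and 404 without the 5 animals with the shortest peaks. The 1229 regions had a median exon length of 221 nt and 13.4% in long exons, against 257 nt and 33.5% for the 6377 other CDS regions tested. These sets also differed in calling animals, with medians of 8 and 6. Regions called in 3 or 4 animals fall among the others by design, since 4 of 12 against 0 of 12 gives p = 0.0932 by Fisher's exact test. For 5 of 12 against 0 of 12, Fisher's exact test gives p = 0.0373. The 1229 regions thus included regions that entered the rule through 8-month animals alone, 369 of them with exactly 5 calls. The exon lengths of the 1229 regions are therefore only a description.

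The regions with the lowest p for age did not pass adjustment. In Magi1, a scaffold of cell junctions, the region at chr6:93647280-93647636 in exon 18 of 24 was called in 10 of 12 animals at 8 months and 0 of 12 at 5 months (Fisher's exact test, p = 6.73e-05, adjusted p = 0.188). Its fold enrichments at 8 months were 3.46, 3.19 and 3.25 in trained KI mice, 2.26, 3.14 and 3.89 in trained WT mice, 2.48 and 6.70 in 2 naive KI mice, and 3.22 and 4.60 in 2 naive WT mice. In Itpkb, a kinase of inositol trisphosphate, the region at chr1:182343773-182344070 in exon 4 was called in 11 animals at 8 months and 1 at 5 months, with fold enrichments of 2.12 to 9.07. Regions of Dchs1 (chr7:112914443-112914992), a large cadherin, and of Sema7a (chr9:57808216-57808703), a membrane-bound semaphorin, had the same counts of 11 and 1 (exact p = 0.000107 each), in exons of 189 and 155 nt.

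The 4 regions with the lowest p for more calls at 5 months lay in exons of 308 to 3795 nt. In Gpcpd1, a phosphodiesterase of choline phospholipid turnover, the region at chr2:132356230-132356522, 84 nt before the stop codon, was called in 0 animals at 8 months and 7 at 5 months (exact p = 0.00458, adjusted p = 0.256), with fold enrichments of 2.00 to 3.83. In Stau2, whose protein carries mRNA into dendrites, the region at chr1:16335466-16336147 was called in 3 animals at 8 months and 10 at 5 months (exact p = 0.0123). Both other regions, at chr1:141376189-141376689 and chr1:141377211-141377540, lay in 1 exon of Aspm, a spindle gene of dividing progenitors, and were called in 0 animals at 8 months and in 6 and 5 animals at 5 months (exact p = 0.0137 and 0.0373).

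In the synaptic, channel and nuclear lists, the regions past the unadjusted threshold for age were nearly all more frequent at 8 months. These were 18 of 65 tested regions of postsynaptic genes, 11 of 46 of presynaptic genes, 8 of 44 of channel genes, 4 of 20 of ionotropic and 2 of 8 of metabotropic glutamate receptor genes, 23 of 87 of nuclear genes, 22 of 86 of cytoskeletal genes, 4 of 12 of immediate-early genes, 1 of 12 of m6A genes, 3 of 9 of huntingtin partners and 0 of 11 of GABA synapse genes. The background was 16.2% of the CDS regions tested. The 1 region in the other direction belonged to Tbp, the TATA-binding protein gene, with 3 animals at 8 months and 9 at 5 months. In Hap1, which codes for a huntingtin-associated protein, a region in an exon of 179 nt was called in 8 animals at 8 months and in 0 at 5 months.

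Within single groups of genotype and training, 3 animals of each age can be set against each other, for which the smallest possible exact p is 0.1. In naive KI mice, 538 variable CDS regions were called in 3 of 3 animals at 8 months and 0 of 3 at 5 months, against 3.58% of all 39806 variable regions (6.12% of the CDS regions), and 12 the other way (0.137%), against 0.51%. In trained WT mice the counts were 299 and 0 (3.40% and 0% of the CDS regions), against 3.09% and 0.0301% of all variable regions. In naive WT mice they were 99 and 11 (1.13% and 0.125%), against 0.867% and 0.739%, and in trained KI mice 73 and 28 (0.831% and 0.319%), against 0.46% and 1.22%. In all 4 contrasts more CDS regions were called only at 8 months than only at 5 months, whereas over all variable regions the trained KI contrast had more regions at 5 months.

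Between genotypes, KI mice called more variable CDS regions, but the difference did not pass adjustment. KI mice called 4335 ± 1579 regions and WT mice 3362 ± 1436 (SD, n = 12 each), a difference of 972 (exact permutation test, p = 0.044, adjusted p = 0.11), which had the same direction in 3 of the 4 combinations of age and training. The lowest, median and highest counts were 2597, 3768 and 7797 in KI mice and 1862, 2866 and 6152 in WT mice. The called regions included some that entered the rule through a single genotype, such as those of Slc16a11, Ranbp1 and Smndc1, called in KI mice alone. With 22601 best peaks per animal the difference was -29.3 (exact p = 0.863). CDS made up 21.3% of the variable regions called by KI mice and 20.6% of those called by WT mice (exact test, adjusted p = 0.791), the long-exon share 52.7% and 58.9% (adjusted p = 0.206), the share near the stop codon 29.8% and 31.4% (adjusted p = 0.228) and the GGAC share 42.2% and 42.9% (adjusted p = 0.206).

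In single contrasts the larger counts were on the KI side except in trained mice of 8 months. At 5 months, trained KI mice called 3378 ± 676 regions on average and trained WT mice 2041 ± 233 (p = 0.1, exact), without overlap, and 115 CDS regions had a call in all 3 KI mice and no WT mouse, with 0 the other way, against 2.17% and 0.0327% of all variable regions. In naive mice of 5 months the counts were 82 and 10, against 0.965% and 0.163%. In naive mice of 8 months they were 158 and 5, against 1.88% and 0.0628%, and in trained mice of 8 months 15 and 40, against 0.163% and 0.781%. The naive KI mice of 8 months included naive KI animals 1 and 3, which had the shortest peaks, and the part of peak length in the count of 158 was not tested. Once each animal was cut to 22601 best peaks, KI less WT was -64.3 regions in trained mice of 5 months, -429 in naive mice of 8 months and 239 in trained mice of 8 months, each opposite in sign to the difference with all peaks. As shares of the CDS regions the counts of regions were 1.31 and 0%, 0.933 and 0.114%, 1.80 and 0.0569%, and 0.171 and 0.455%.

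By single region, 121 of the 7606 CDS regions tested (1.59%) were called more often in KI mice with an unadjusted p under 0.05, near the 1.72% of all regions, and 3 (0.0394%) more often in WT mice, against 0.0684%. After adjustment 0 CDS regions passed, against 0.00285% of all regions, and the lowest adjusted p among CDS regions was 1. These counts were 22 on the KI side and 29 on the WT side with 22601 best peaks per animal. The region with the lowest p lay at chr11:70027832-70028357 in exon 1 of Slc16a11, a gene of the monocarboxylate transporter family, and was called in 8 of 12 KI mice and 0 of 12 WT mice (exact p = 0.00135, adjusted p = 1). Its fold enrichments in KI mice were 2.62 (trained, 8 months), 2.19 and 2.42 (naive, 8 months), 2.86, 6.26 and 3.02 (trained, 5 months) and 2.56 and 3.58 (naive, 5 months). All 3 trained KI mice of 5 months called it, against 1 or 2 of 3 in the other KI conditions.

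Other regions more frequent in KI mice belonged to Arhgap31, a GTPase-activating protein for Rac and Cdc42, to Ranbp1, which acts in nuclear transport, and to Smndc1, a splicing factor gene. The Arhgap31 region (chr16:38606722-38607224) was called in 12 KI and 5 WT mice, and all 5 WT mice were 8 months old. The regions of Ranbp1 (chr16:18245322-18245568) and Smndc1 (chr19:53454880-53455162) were called in 7 KI and 0 WT mice each (exact p = 0.00458 for each of the 3). The Smndc1 region lay 64 nt before the stop codon in an exon of 1388 nt, that of Ranbp1 in an exon of 158 nt.

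Regions more frequent in WT mice were those of 1700001L19Rik (chr13:68751414-68752100), called in 5 KI and 11 WT mice (exact p = 0.0272), of Il20ra, a receptor subunit for cytokines of the interleukin 20 family, in 0 KI and 5 WT mice (p = 0.0373), and of Rpl15-ps2, in 7 KI and 12 WT mice (p = 0.0373). Rpl15-ps2 is annotated as coding but named as a copy of a ribosomal protein gene, so its reads may be shared. The next region, in Rspry1, was called in 2 KI and 7 WT mice (exact p = 0.0894). In the gene lists, few regions passed the unadjusted threshold for genotype, all on the KI side. They were 1 of 11 tested regions of GABA synapse genes, in Gabra3 (5 KI and 0 WT mice), and 1 of 44 of channel genes, in Cacna1h (9 and 3). The cytoskeletal list had 1 of 86, the transcription and chromatin list 1 of 87, and the other lists 0. The background was 1.59% of the CDS regions tested.

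**Figure D5:**
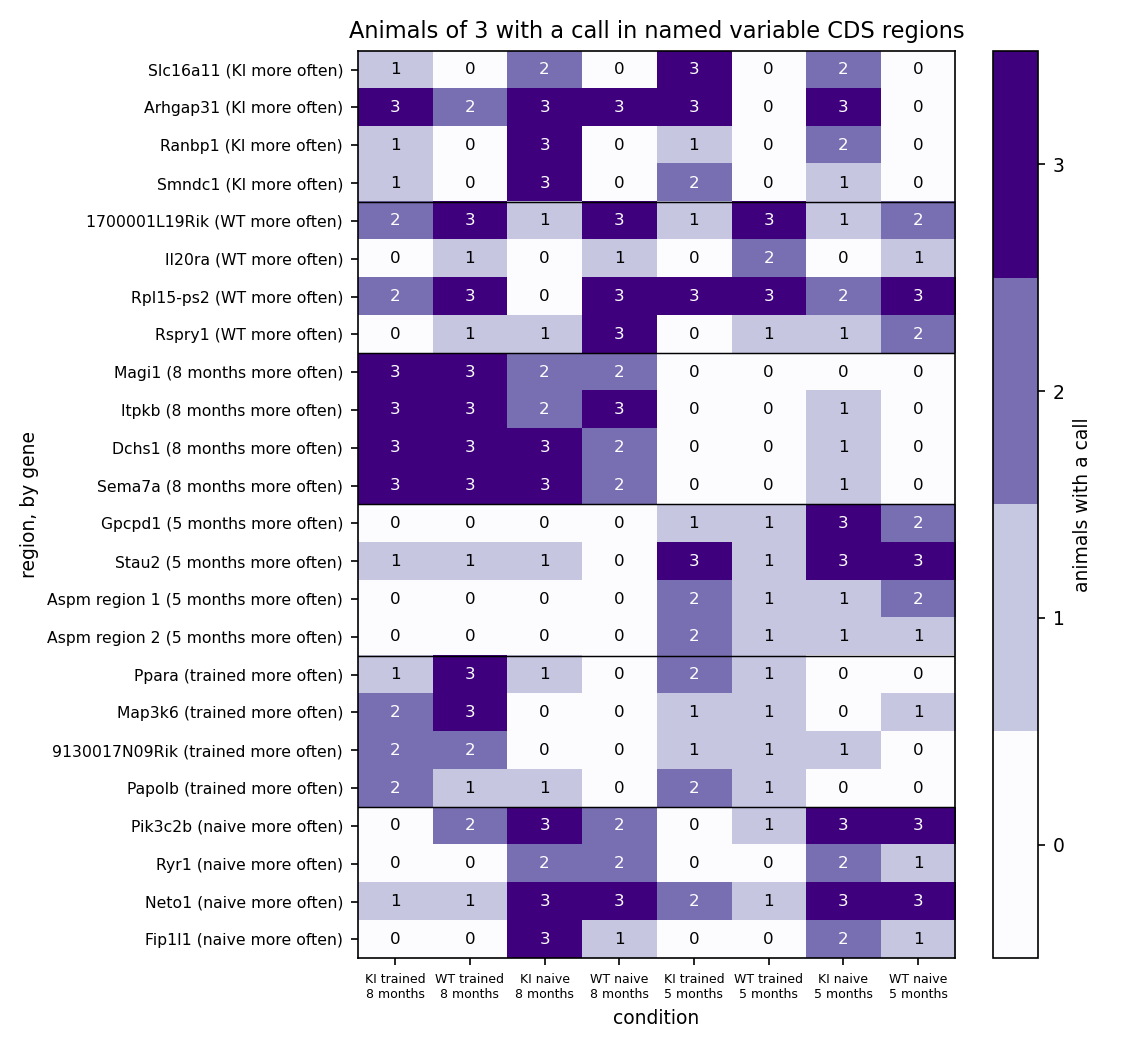
Number of animals, of 3, that called each of 24 variable CDS m6A regions in each condition, with 4 regions per direction and factor chosen by the lowest p (rows, grouped by horizontal lines). The 4 regions called more often at 8 months have 0 or 1 call in each condition of 5 months.

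Trained mice called fewer variable CDS regions than naive mice on average, within the spread between animals. Trained mice called 3469 ± 1225 regions and naive mice 4228 ± 1805 (SD, n = 12 each), a difference of -759 (exact permutation test, p = 0.117, adjusted p = 0.206), with the same sign in 4 of 4 combinations of age and genotype. With 22601 best peaks per animal it was 81.3 (exact p = 0.635). The called regions included some that entered the rule through naive mice alone, such as those of Ryr1 and Fip1l1. CDS made up 21.1% of the variable regions called by trained and 20.9% of those called by naive mice (exact test, adjusted p = 0.947), the long-exon share 57.9% and 53.7% (adjusted p = 0.344), the share near the stop codon 30.7% and 30.5% (adjusted p = 0.947) and the GGAC share 42.9% and 42.2% (adjusted p = 0.228).

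At 8 months, trained less naive mice differed by -2235 called regions in KI mice and by -96.3 in WT mice, and the difference between these changes was -2139 (exact permutation test, p = 0.245). At 5 months the changes were -89.7 in KI and -614 in WT mice, with a difference of 524 (exact p = 0.42). Both differences changed sign, to 668 and -202, with 22601 best peaks per animal. In KI mice of 8 months, 1 CDS region was called in 3 of 3 trained and 0 of 3 naive mice and 234 the other way (0.0114% and 2.66% of the CDS regions), against 0.0653% and 2.44% of all variable regions. In WT mice of 8 months the counts were 24 and 19 (0.273% and 0.216%), against 0.761% and 0.244%, in KI mice of 5 months 15 and 28 (0.171% and 0.319%), against 0.422% and 0.518%, and in WT mice of 5 months 4 and 68 (0.0455% and 0.774%), against 0.0553% and 1.21%. The 234 regions of the KI contrast at 8 months were counted against the naive KI group that held 2 of the 5 animals with the shortest peaks, and the part of peak length in this count was not tested.

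By single region, 2 CDS regions (0.0263%) were called more often in trained mice with an unadjusted p under 0.05, against 0.128% of all regions, and 80 (1.05%) more often in naive mice, against 1.31%. After adjustment 0 CDS regions and 0% of all regions passed, with a lowest adjusted p of 1. Both counts shifted, to 27 and 24, with 22601 best peaks per animal. The 2 regions on the trained side belonged to Ppara, a nuclear receptor of fatty acid metabolism, and Map3k6, a kinase of the MAP kinase cascade, at chr15:85628470-85628686 and chr4:132808459-132808833, each called in 7 trained and 1 naive mice (exact p = 0.0272). The Ppara region had the highest median fold enrichment, 8.64, of the 24 regions chosen by p. Its values were 10.8 in 1 trained KI mouse of 8 months, 8.89, 8.96 and 8.7 in trained WT mice of 8 months, 8.48 and 7.29 in 2 trained KI mice and 8.58 in 1 trained WT mouse of 5 months, against 7.02 in the 1 naive mouse, a KI mouse of 8 months. Regions of 9130017N09Rik and of the poly(A) polymerase gene Papolb were called in 6 trained and 1 naive mice (exact p = 0.0686).

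On the naive side, the region at chr1:135002446-135002951 with its midpoint 33 nt before the stop codon of Pik3c2b, a lipid kinase gene, was called in 3 trained and 11 naive mice (exact p = 0.00276, adjusted p = 1). Its fold enrichments were 3.06 and 4.31 in 2 trained WT mice of 8 months and 3.53 in 1 trained WT mouse of 5 months, with no call in trained KI mice, against 3.33, 4.60 and 3.93 (naive KI, 8 months), 3.69 and 3.36 (naive WT, 8 months), 6.46, 2.43 and 5.11 (naive KI, 5 months) and 2.35, 3.07 and 3.43 (naive WT, 5 months). Regions of Ryr1 (chr7:29868374-29868779), a calcium release channel, and of Fip1l1 (chr5:74987741-74987999), a gene of mRNA polyadenylation, were called in 0 trained and 7 naive mice each, and a region of Neto1, an auxiliary subunit of kainate receptors, in 5 trained and 12 naive mice (exact p = 0.00458 each). The enrichments of the callers did not separate the groups, since the trained mice with a Pik3c2b call lay within the range of the naive mice. In the gene lists, 2 regions passed the unadjusted threshold for training, those of Gphn (0 trained and 6 naive mice), which anchors GABA receptors, and of Crebbp (0 and 5), a histone acetyltransferase gene. They were 1 of 11 tested regions of the GABA synapse list and 1 of 87 of the transcription and chromatin list, and the other lists had 0. The background was 1.05% of the CDS regions tested, called more often in naive mice.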

How the data were processed

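m6A-IP and input libraries of 24 mouse hippocampi were made by the authors, 48 libraries in all. The authors trimmed reads, aligned them to mm9 with STAR 2.7.3a, kept unique reads outside repeats and used MACS2 2.2.6 to call narrow peaks in every animal's IP over its own input, without pooling. The deposited peak lists give the fold enrichment of IP over input at the summit (a ratio), the summit's -log10 p and -log10 q, and a score of 10 times -log10 q as a whole number. All deposited peaks had a -log10 q of at least 1.3. The 10 deposited tables of DiffBind 2.8.0 comparisons hold the authors' mean levels, log2 fold changes and p-values and were not used, and the input libraries were not analysed here. A read depth for each single library is not given in the sources used here, so yield was measured by the number of peaks. A missing call does not show that m6A was missing.

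Peaks overlapping by 1 bp were merged over the 24 animals. Midpoints were placed in the NCBIM37 annotation, and exon length and coding distance to the stop codon were taken from it. GGAC was searched on the mRNA strand within 50 bases of the strongest summit, in genomic sequence that was not trimmed to the exon. Counts and shares per animal were compared by exact permutation within the 4 combinations of both other factors, with Benjamini-Hochberg adjustment over 15 tests. Single regions called in 3 to 21 animals were compared by Fisher's exact test (two-sided), adjusted over all 35110 regions tested. Permutation tests were two-sided. Named were, for each factor and direction, the 4 regions with the lowest p, the 10 genes with most regions, the 3 longest exons of different genes and the 3 leading genes of 11 gene lists; other list genes were named after their values were seen. Some genes that the rule picks are not reported here. The regions and lists were chosen with earlier results of these data known. The code was tested on simulated data. Python 3.11.15, numpy 2.4.6, scipy 1.17.1, pandas 2.3.3 and matplotlib 3.10.9 were used. Alternatives changed the peak threshold, the number of peaks per animal, the overlap, the limits of the rule, the exon, stop codon and motif distances, and the animals.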

Additional observations from a re-analysis of the deposited data

How the results depend on the processing

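The age difference in the long-exon share stayed past the threshold under every alternative run, none of which left out the regions called at a single age. With 22601 best peaks per animal (6149 regions), the genotype, age and training differences in called regions were -29.3, 275 and 81.3, the genotype difference in CDS share was -0.21 points, the interaction was 668 at 8 months and -202 at 5 months, and the share near the stop codon stood 0.91 points above the constitutive one. Regions with an unadjusted p under 0.05 then numbered 22 (more in KI), 29 (WT), 179 (8 months), 34 (5 months), 27 (trained) and 24 (naive). Single contrasts turned to -64.3, -429 and 239 for KI less WT (trained at 5 months, naive and trained at 8 months) and to 53.7, 342 and 255 for trained less naive (KI at 5 and 8 months, WT at 5 months). With a -log10 q of 5 or more the genotype difference was 365 regions (exact p = 0.217) and -0.40 points of CDS share, the stop codon difference was 0.21, and the 6 counts were 66, 10, 360, 21, 13 and 38. With regions of 3 to 21 animals only, the genotype difference was 890 (exact p = 0.0602) and the training difference in CDS share -0.32. With 200 nt as the limit at the stop codon, the difference from constitutive regions was 1.01. Both of the following were chosen after seeing the data. Without the 5 animals with the shortest peaks the genotype difference was 700.4, the age differences in CDS and GGAC share were 3.02 and -0.97, and 404, 18 and 5 regions passed for 8 months, 5 months and trained. With 15000 best peaks, run for age alone, the age difference in called regions was 123 (exact p = 0.4). The cause of these shifts was not tested.

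Leaving out 1 animal at a time gave 753 to 1192 called regions for genotype (exact p = 0.0223 to 0.107) and -979 to -543 for training, with p = 0.036 by the exact test without naive WT animal 1 of 8 months. CDS share ranged over -0.14 to 1.87 for genotype, below 0 without trained KI animal 2 of 8 months, and -1.03 to 0.82 for training. The share near the stop codon ranged over -2.29 to -1.11 for genotype, with exact p = 0.0315 without trained WT animal 2 of 5 months, and -0.33 to 0.85 for training. The GGAC share ranged over -1.05 to -0.56 for genotype, with exact p = 0.0248 without naive WT animal 2 of 5 months. Counts with p under 0.05 ranged over 132 to 267 (KI), 3 to 10 (WT), 1274 to 2236 (8 months), 8 to 23 (5 months), 2 to 10 (trained) and 93 to 217 (naive), with the highest KI count without naive WT animal 2 of 8 months, and the cause of these shifts was not tested. Single contrasts ranged over -912 to 320 for KI less WT in trained mice of 8 months, -975 to 767 for trained less naive WT mice of 8 months and -411 to 301 for trained less naive KI mice of 5 months. No paired analysis was possible because each animal belonged to 1 condition and animal numbers link no conditions.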
